A study of Arabidopsis thaliana with 12 samples.

Results

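The aquaporins of Arabidopsis thaliana were followed in seedlings of 3 genotypes. The family was taken as 35 loci, identified by the locus name that the array design gives each probe: 13 PIP (plasma membrane), 10 TIP (vacuole membrane), 9 NIP and 3 SIP (endoplasmic reticulum) genes. All 35 had a probe, and each had 1, among 25665 loci on the array. Of these, 32 were bright enough to be tested. TIP1;3 and NIP4;1, known from pollen, were well above background on 0 of 12 arrays, and TIP3;2, known from seeds, on 1.

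The first genotype, GLK1-SRDX, carries the transcription factor GLK1 fused to the SRDX repression domain and driven by the 35S promoter, which is active in most cell types. The second was the double mutant glk1 glk2, and the third was wild type. All were Columbia-0 seedlings harvested whole at 2 weeks from MS agar with 1% sucrose, kept at 23 °C in 16 h light and 8 h dark, with no treatment. Each genotype had 4 single-colour Agilent arrays of RNA from many seedlings. The labels do not say whether the 4 RNAs came from separate cultures or how many transgenic lines were used, so the tests take in only the spread among these RNAs, which may be technical.

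Aquaporins are membrane channels that pass water, and many also pass small neutral solutes such as boric acid, ammonia or urea. PIP1 proteins generally need a PIP2 partner to reach the plasma membrane, and PIPs set much of the water permeability of roots and leaves. TIPs serve the vacuole, and NIPs carry mainly metalloids and other small solutes. Some members are found chiefly in roots, others chiefly in leaves, seeds or pollen. From general knowledge, 12 tested members were classed as root-type, 4 as leaf-type, 4 as seed or pollen type and 12 as broad.

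A level is given here as log2 of a spot's intensity divided by the 75th percentile of its array, so that 0 marks the 75th percentile. A negative level is a dim spot, and levels of different probes are not comparable. Values are listed for arrays 1 to 4 of each genotype. Differences are log2 differences with their standard error from a limma fit over 20640 loci and 12 arrays, and "rose" and "fell" refer to a Benjamini-Hochberg adjusted p under 0.05. The GLK1 transcript lay between 0.76 and 1.07 in GLK1-SRDX, between -2.86 and -1.3 in glk1 glk2 and between -0.15 and 0.48 in wild type, which follows the labels. All GLK1-SRDX arrays lay on a slide of their own, so slide and this genotype cannot be told apart. The glk1 glk2 and wild-type arrays shared the other 2 slides evenly.

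In GLK1-SRDX, 8 of the 32 tested aquaporins fell and 1 rose against wild type. Over all tested loci, 6.3% fell and 8.1% rose. The 8 were the plasma membrane channels PIP1;1, PIP1;5, PIP2;2, PIP2;3 and PIP2;4, the vacuolar channels TIP2;2 and TIP2;3, and the boric acid channel NIP7;1. The 1 that rose was NIP1;2. By subfamily, 5 of 13 PIPs and 2 of 8 tested TIPs fell, 1 of 8 tested NIPs fell and 1 rose, and 0 of 3 SIPs passed. Of the 32 differences 28 were below 0, as were 48.3% of those of all loci, and their median was -0.37, against 0.01 over all tested loci. In glk1 glk2, 0 aquaporins rose and 0 fell against wild type in the limma fit, where 2.14% of all loci rose and 1.11% fell. At an unadjusted p under 0.05, 9 were lower and 0 higher, with 8.49% and 11.1% of all loci. Of the 32 differences in glk1 glk2 24 were below 0 (49.9% over all loci), and their median was -0.11 (0.08 with arrays scaled to their medians, a scaling that moved the median of all loci to 0.2).

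**Figure D1:**
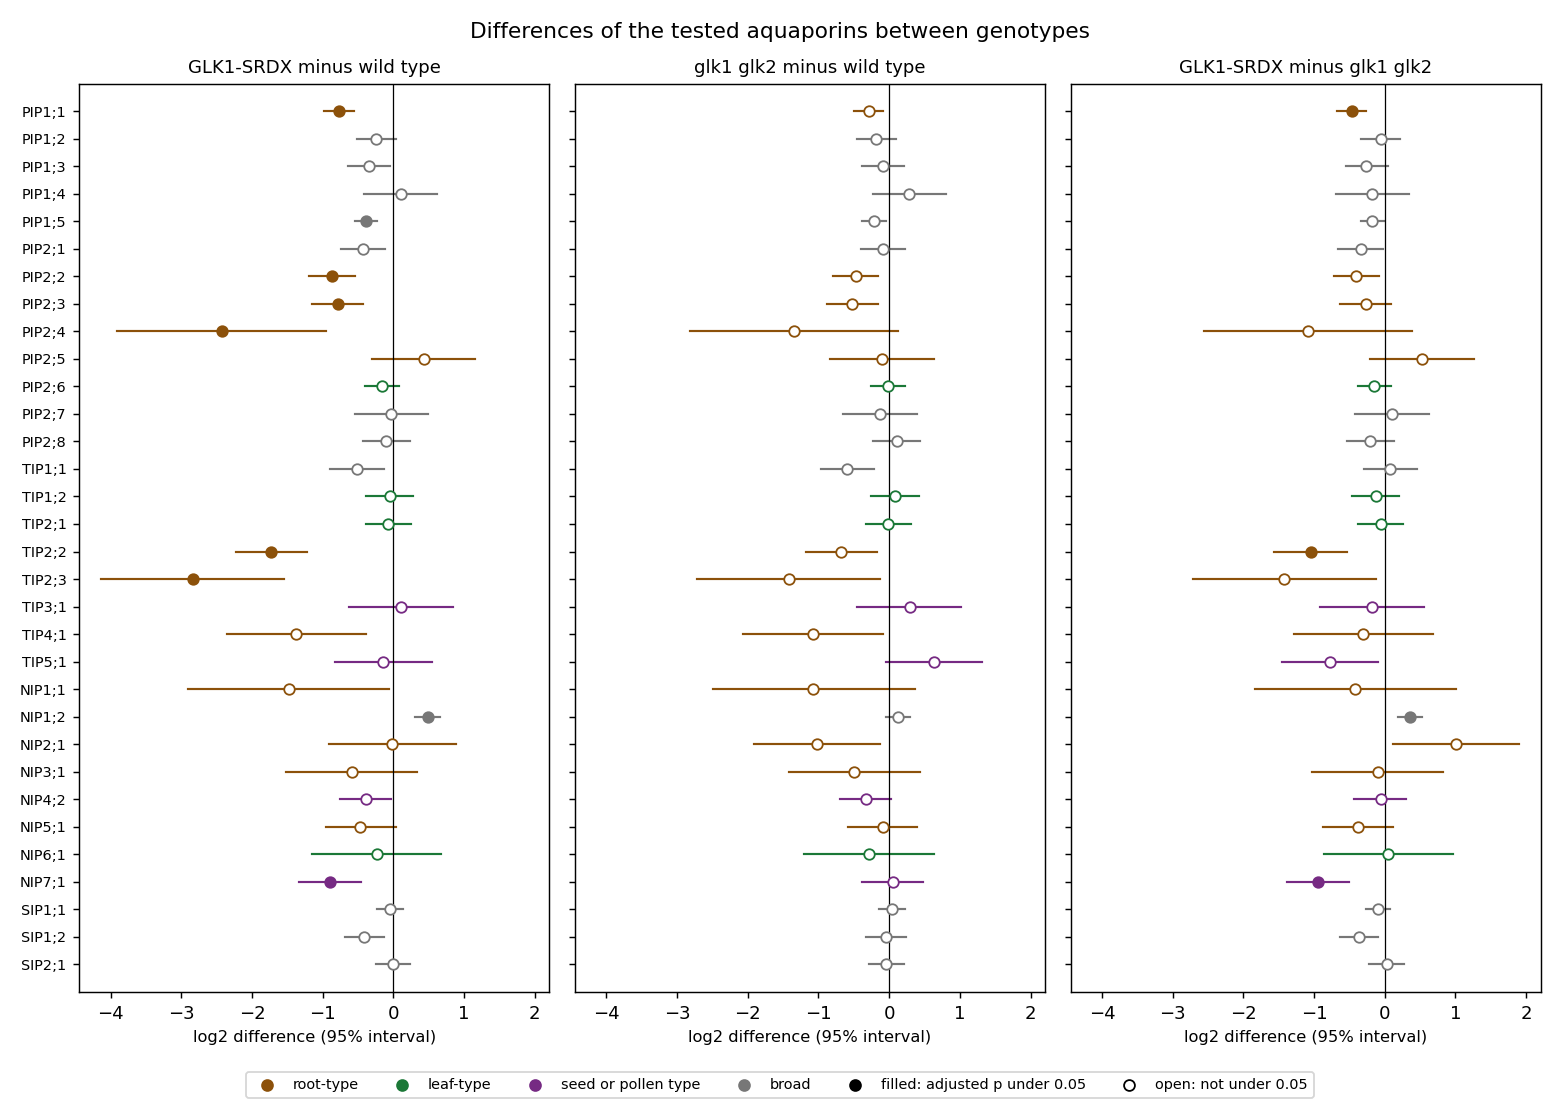
Log2 difference of each tested aquaporin in the 3 comparisons, with its 95% interval from the limma fit. Filled points have an adjusted p under 0.05, and colours give the organ class. In the GLK1-SRDX panel 3 root-type channels lie farthest below 0 (-2.84, -2.43 and -1.73), while the 2 leaf-type TIPs lie at -0.05 and -0.07.

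The largest difference belonged to TIP2;3 (AT5G47450), a root vacuolar channel that passes ammonia as well as water. Its levels were -2.15, -2.06, -1.46 and -0.88 in GLK1-SRDX, 0.39, -0.83, 1.45 and -1.87 in glk1 glk2, and 1.26, 1.41, 1.07 and 1.08 in wild type. Every GLK1-SRDX array lay below every wild-type array, whereas the glk1 glk2 arrays ran from the range of the GLK1-SRDX arrays to above all wild-type arrays. The channel was 7.18-fold lower in GLK1-SRDX than in wild type (-2.84 ± 0.59 SE, n = 4 arrays per genotype, limma adjusted p = 0.0106). Its difference in glk1 glk2 was -1.42 ± 0.59 (adjusted p = 0.213).

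Its closest relative, TIP2;2 (AT4G17340), is likewise a root vacuolar channel. It lay at 0.96, 1.13, 1.28 and 1.54 in GLK1-SRDX, at 2.37, 2.08, 2.97 and 1.67 in glk1 glk2, and at 2.98, 3.04, 2.9 and 2.9 in wild type. The GLK1-SRDX arrays were below all arrays of both other genotypes. It fell 3.31-fold against wild type (-1.73 ± 0.23 SE, limma adjusted p = 0.000975). It was also 2.07-fold lower than in glk1 glk2 (-1.05 ± 0.23 SE, adjusted p = 0.0177). That second call was lost without glk1 glk2 array 1 (adjusted p = 0.0537), GLK1-SRDX array 1 (0.0595) or GLK1-SRDX array 2 (0.0531).

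The third root vacuolar channel, TIP4;1 (AT2G25810), had -4.17, -3.81, -2.73 and -3.31 in GLK1-SRDX, -2.96, -4.04, -1.88 and -3.92 in glk1 glk2, and -1.87, -2.18, -2.27 and -2.21 in wild type. All 4 GLK1-SRDX arrays were below all wild-type arrays, but the difference of -1.38 ± 0.45 did not pass (limma adjusted p = 0.0645). It passed under 5 of 23 alternatives, among them the fit without glk1 glk2 array 3 (adjusted p = 0.0153). The others scaled arrays to their medians (0.0441), fitted only 2 genotypes (0.0147), or took replicate number (0.0433) or slide (0.0464) as a block. TIP1;1 (AT2G36830), an abundant channel of vacuoles in most organs, had 4.5, 4.54, 4.47 and 4.55 in GLK1-SRDX, 4.57, 4.4, 4.85 and 3.93 in glk1 glk2, and 5.1, 5.24, 5.01 and 4.77 in wild type. The GLK1-SRDX values were close to each other and below wild type, and 3 of 4 glk1 glk2 arrays were below wild type too. Its differences were -0.51 ± 0.17 in GLK1-SRDX (adjusted p = 0.0672) and -0.59 ± 0.17 in glk1 glk2 (adjusted p = 0.0885), the smallest adjusted p of the 32 in that mutant. The GLK1-SRDX difference passed under 4 of 23 alternatives. These left out glk1 glk2 array 3 (adjusted p = 0.0286) or array 4 (0.0169), fitted only 2 genotypes (0.0124) or took replicate number as a block (0.0472).

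Among plasma membrane channels the widest differences were those of PIP2;4 (AT5G60660), a root channel. Its levels were -1.74, -1.95, -0.79 and -1.22 in GLK1-SRDX, 0.46, -0.83, 1.43 and -2.42 in glk1 glk2, and 1.2, 1.27, 1.14 and 0.41 in wild type. The glk1 glk2 arrays spanned a wider range than both other genotypes together. The transcript was 5.4-fold lower in GLK1-SRDX than in wild type (-2.43 ± 0.67 SE, limma adjusted p = 0.036). This call rested on the full set of arrays: without wild-type array 1, 2 or 3, or without any 1 of the GLK1-SRDX arrays, the adjusted p was 0.0534 to 0.0993, and over all left-out arrays the difference was -2.64 to -2.25. Against glk1 glk2 it did not pass (-1.08 ± 0.67, adjusted p = 0.366), but did without glk1 glk2 array 4 (-1.78, adjusted p = 0.0476).

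PIP2;2 (AT2G37170) and PIP2;3 (AT2G37180) are neighbouring genes with closely related products, and whether their probes keep them apart is not known here. The first, a major water channel of roots, had 3.02, 2.81, 2.94 and 2.92 in GLK1-SRDX, 3.39, 3.12, 3.76 and 3.02 in glk1 glk2, and 3.72, 3.97, 3.67 and 3.81 in wild type. It was 1.83-fold lower in GLK1-SRDX than in wild type (limma adjusted p = 0.00355). The second had -0.36, -0.24, -0.94 and -0.41 in GLK1-SRDX, -0.02, -0.26, -0.13 and -0.46 in glk1 glk2, and 0.4, 0.39, -0.01 and 0.42 in wild type. It was 1.73-fold lower in GLK1-SRDX (adjusted p = 0.0106). Its wild-type arrays were also above all glk1 glk2 arrays, with a difference of -0.52 ± 0.16 that did not pass (adjusted p = 0.114).

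PIP1;1 (AT3G61430), a root-type member of the PIP1 group, gave the lowest adjusted p of the family. It lay at 4.56, 4.31, 4.41 and 4.33 in GLK1-SRDX, at 4.98, 4.77, 5.02 and 4.72 in glk1 glk2, and at 5.19, 5.18, 5.02 and 5.28 in wild type. GLK1-SRDX was below both other genotypes on every array. It fell 1.7-fold against wild type (-0.77 ± 0.09 SE, limma adjusted p = 0.000666) and 1.39-fold against glk1 glk2 (-0.47 ± 0.09 SE, adjusted p = 0.0116). The call against glk1 glk2 was lost with normexp background (-0.35, adjusted p = 0.246) and the authors' scaling (-0.19, 0.494). PIP1;5 (AT4G23400), a broad member, had 3.98, 3.78, 3.69 and 3.72 in GLK1-SRDX, 4.04, 3.97, 3.94 and 3.92 in glk1 glk2, and 4.21, 4.21, 4.15 and 4.15 in wild type. Both lines lay below all wild-type arrays, and it was 1.31-fold lower in GLK1-SRDX (adjusted p = 0.00695) and 1.16-fold lower in glk1 glk2, where it did not pass (adjusted p = 0.145). With arrays scaled to their medians the GLK1-SRDX difference was -0.21 (adjusted p = 0.205), against a median of 0.2 over all loci.

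Other broad PIPs did not pass in any comparison. PIP2;1 (AT3G53420), a channel of leaf veins, roots and guard cells, had 4.18, 4, 3.88 and 3.85 in GLK1-SRDX, 4.45, 4.37, 3.93 and 4.54 in glk1 glk2, and 4.4, 4.54, 4.15 and 4.52 in wild type. Its difference from wild type was -0.43 ± 0.14 in GLK1-SRDX (limma adjusted p = 0.068) and -0.08 ± 0.14 in glk1 glk2. Without glk1 glk2 array 3 the GLK1-SRDX arrays passed against wild type (adjusted p = 0.0199) and against glk1 glk2 (0.0248). Against wild type PIP2;1 also passed with quantile normalization (0.0184), only 2 genotypes fitted (0.0329), replicate number as a block (0.0268) or a root-marker covariate (0.0091). PIP1;3 (AT1G01620) had 5.9, 5.62, 5.7 and 5.65 in GLK1-SRDX, 6.08, 6.25, 5.89 and 5.68 in glk1 glk2, and 6.02, 6.26, 6.16 and 5.83 in wild type. The groups overlapped, and the difference of -0.35 ± 0.13 in GLK1-SRDX did not pass (adjusted p = 0.108). The remaining 4 broad PIPs (AT2G45960, AT4G00430, AT4G35100 and AT2G16850) differed from wild type by -0.24 to 0.11 in GLK1-SRDX and by -0.18 to 0.28 in glk1 glk2.

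**Figure D2:**
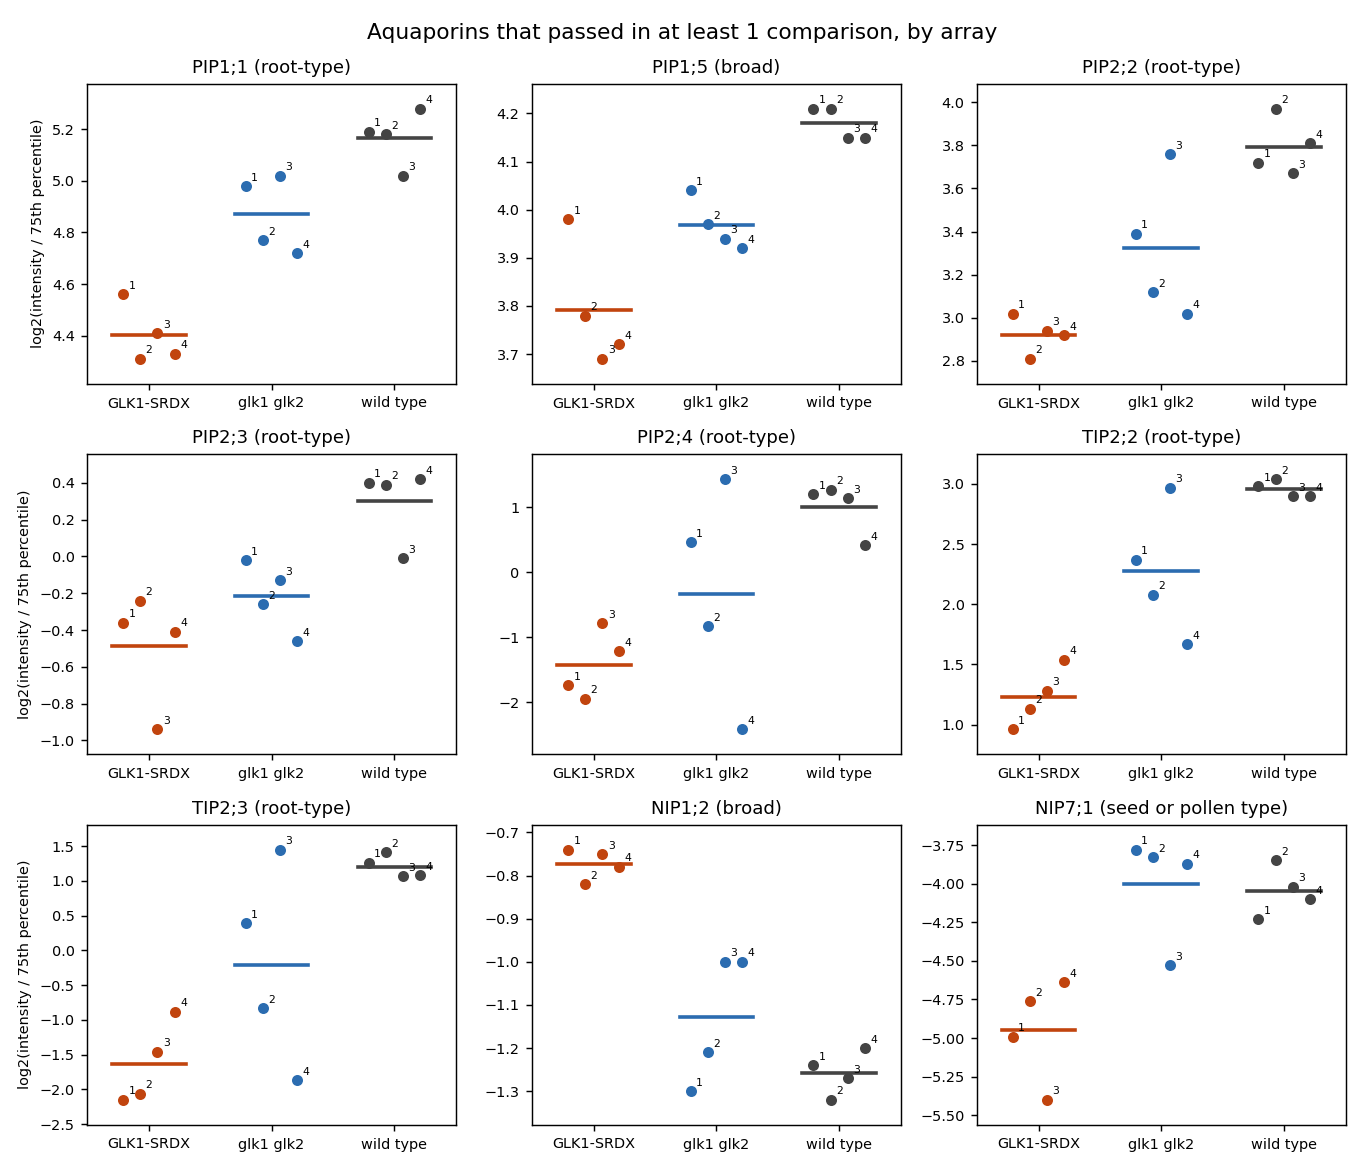
Level of the 9 aquaporins that passed in at least 1 comparison, as log2 of intensity over the array's 75th percentile. Points are single arrays with their replicate number, and bars are genotype means (n = 4 arrays). For the 3 root-type channels with the widest differences, glk1 glk2 array 3 (1.45, 1.43 and 2.97) lies among or above the wild-type arrays while array 4 (-1.87, -2.42 and 1.67) lies below them.

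NIP1;2 (AT4G18910), a channel linked to arsenite and aluminium-malate transport, was the aquaporin that rose. It had -0.74, -0.82, -0.75 and -0.78 in GLK1-SRDX, -1.3, -1.21, -1 and -1 in glk1 glk2, and -1.24, -1.32, -1.27 and -1.2 in wild type. The GLK1-SRDX arrays stood above all 8 others. The rise against wild type was 1.4-fold (0.49 ± 0.08 SE, limma adjusted p = 0.00295), and that against glk1 glk2 was 1.28-fold (0.36 ± 0.08 SE, adjusted p = 0.0183). The call against glk1 glk2 was lost without glk1 glk2 array 1 (adjusted p = 0.0536), GLK1-SRDX array 1 (0.0579) or GLK1-SRDX array 3 (0.0572).

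NIP7;1 (AT3G06100), a boric acid channel best known from anthers, moved the other way at a low level. Its levels were -4.99, -4.76, -5.4 and -4.64 in GLK1-SRDX, -3.78, -3.83, -4.53 and -3.87 in glk1 glk2, and -4.23, -3.85, -4.02 and -4.1 in wild type. The GLK1-SRDX arrays were below all others, and glk1 glk2 and wild type overlapped. It fell 1.86-fold against wild type (-0.9 ± 0.2 SE, limma adjusted p = 0.014) and 1.93-fold against glk1 glk2 (-0.94 ± 0.2 SE, adjusted p = 0.0137). The call against wild type was lost under scaling to array medians (-0.71, adjusted p = 0.056), quantile normalization (-0.7, 0.0754) and normexp background (-0.9, 0.129), and that against glk1 glk2 under normexp (-0.55, 0.494) and the authors' scaling (-0.66, 0.063).

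NIP2;1 (AT2G34390), a lactic acid channel induced in roots by low oxygen, was near the detection limit. It was well above background on 2 GLK1-SRDX, 0 glk1 glk2 and 2 wild-type arrays, with levels of -7.3, -6.83, -6.3 and -7.81, of -8.91, -8.04, -7.33 and -7.99, and of -7.36, -7.39, -7.24 and -6.19 in that order of genotypes. In glk1 glk2 it was at least 1.34-fold lower than in wild type, with the dim signal set no lower than the lowest signal well above background on its array, and this did not pass (limma adjusted p = 0.197). The boric acid importer of roots, NIP5;1 (AT4G10380), had -0.84, -1.28, -0.77 and -0.98 in GLK1-SRDX, -0.81, -0.31, -0.06 and -1.17 in glk1 glk2, and -0.55, -0.2, -0.54 and -0.7 in wild type. The GLK1-SRDX arrays were below all wild-type arrays, and the difference of -0.47 ± 0.22 did not pass (adjusted p = 0.183). The other root-type NIPs with a signal on all arrays (AT4G19030 and AT1G31885) had differences of -1.48 and -0.59 in GLK1-SRDX and of -1.07 and -0.49 in glk1 glk2, and neither passed. 

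Of the SIPs, whose roles are less well known, SIP1;2 (AT5G18290) came closest, with -2.9, -2.71, -2.75 and -2.43 in GLK1-SRDX, -2.07, -2.47, -2.49 and -2.3 in glk1 glk2, and -2.26, -2.2, -2.19 and -2.5 in wild type. Its difference from wild type in GLK1-SRDX was -0.41 ± 0.13 (adjusted p = 0.0548). That passed without wild-type array 4 (adjusted p = 0.0426), glk1 glk2 array 1 (0.0488) or 3 (0.0427), or GLK1-SRDX array 4 (0.0319). It also passed with only 2 genotypes fitted (0.0445) or slide as a random block (0.0402). The other SIPs (AT3G04090 and AT3G56950) differed from wild type by -0.05 to 0.04 in both lines.

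Of the 12 root-type members, 6 fell in GLK1-SRDX against wild type and 0 rose, beside 6.3% and 8.1% of all loci. Their median was -0.83, and 9 had every GLK1-SRDX array below every wild-type array (13% of all loci did). In glk1 glk2 all 12 had negative differences, with a median of -0.6 (-0.4 with arrays scaled to their medians, where AT3G54820 and AT4G10380 lay at 0.1), and 0 passed. At an unadjusted p under 0.05, 7 of the 12 were lower, beside 8.49% of all loci. The 1 root-type member with a positive difference in GLK1-SRDX was PIP2;5 (AT3G54820), which was near the detection limit. It had -6.09, -6.07, -6.22 and -6.06 in GLK1-SRDX, -7.03, -6.51, -7.25 and -5.74 in glk1 glk2, and -6.74, -6.68, -7.01 and -5.71 in wild type, and the groups overlapped (0.43 ± 0.33, limma adjusted p = 0.415).

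The leaf-type members were PIP2;6, TIP1;2, TIP2;1 and NIP6;1, the last a boric acid channel of shoot nodes. TIP2;1 (AT3G16240), a vacuolar channel of shoots, had 7.29, 7.25, 7.2 and 7.15 in GLK1-SRDX, 7.44, 7.67, 6.98 and 7.05 in glk1 glk2, and 7.23, 7.49, 7.33 and 7.13 in wild type, so that all groups overlapped. The plasma membrane channel PIP2;6 (AT2G39010) had 5.1, 5.02, 4.75 and 4.92 in GLK1-SRDX, 5.16, 5.3, 4.92 and 5 in glk1 glk2, and 5.01, 5.24, 5.17 and 5.02 in wild type. The differences of the 4 from wild type were -0.23 to -0.05 in GLK1-SRDX and -0.29 to 0.08 in glk1 glk2, and 0 of 4 passed. With arrays scaled to their medians the PIP and both TIPs lay at 0.02 to 0.13 in GLK1-SRDX. For the PIP and the TIPs among them the 95% intervals of the GLK1-SRDX difference lay between -0.4 and 0.28, so a fall as large as the median of the root-type members lay outside them. The interval of the NIP was wider, from -1.15 to 0.68. A difference between root-type and leaf-type members was not tested.

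The level of root transcripts moved with these results. For each array the median of the root-type aquaporins, as a distance from the wild-type mean, was -0.9, -0.99, -0.68 and -0.85 in GLK1-SRDX, -0.57, -0.77, 0.13 and -1.02 in glk1 glk2, and 0.04, 0.09, -0.13 and -0.07 in wild type. The same median over 20 root markers that include no aquaporin (Casparian strip, root hair and root nutrient uptake genes) was -1.6, -1.6, -1.08 and -1.15 in GLK1-SRDX, -0.73, -1.29, 0.14 and -2.38 in glk1 glk2, and 0.11, 0.24, 0 and -0.35 in wild type. The glk1 glk2 array with the lowest root-marker median, array 4, also had the lowest root-type aquaporin median of all 12 arrays. Array 3, at wild-type root-marker level, had a root-type aquaporin median of 0.13, just above the wild-type arrays. The median of all tested aquaporins on array 3 was -0.16, below the wild-type arrays (-0.07 to 0.09). The leaf-type median stayed between -0.25 and 0.29 on all 12 arrays.

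**Figure D3:**
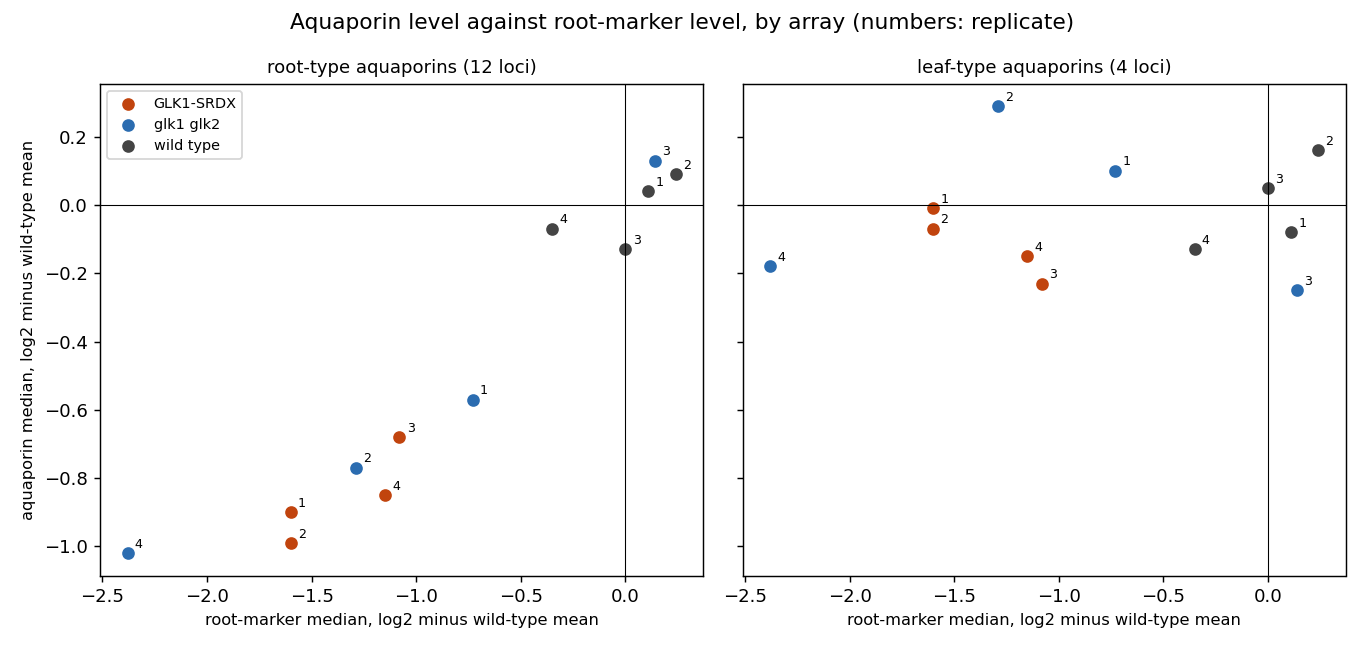
Median of the 12 root-type (left) and 4 leaf-type (right) aquaporins against the median of 20 root markers, each as log2 distance from the wild-type mean. Each point is 1 array with its replicate number. Root-type medians run from -1.02 to 0.13 and are lowest where the root markers are lowest (-2.38), while leaf-type medians stay between -0.25 and 0.29.

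Of the 20 root markers, all detected on at least 1 array of each genotype, 8 fell in GLK1-SRDX (median -1.35), beside 6.3% of all loci. In glk1 glk2 0 passed (median -1.08), and 12 were lower at an unadjusted p under 0.05, beside 8.49% of all loci. The Casparian strip gene CASP5 had the lowest value, at least 20-fold lower in GLK1-SRDX than in wild type (limma adjusted p = 0.00263), while CASP1 to CASP4 differed by -1.75 to -1.02. The root nutrient uptake genes HAK5 (1.7 ± 1.51) and NRT2.1 (1.08 ± 0.42) had positive differences and did not pass (adjusted p = 0.482 and 0.113). Without 1 array, PRP3 lost its call in 7 of 12 fits and PER64 in 9, and EXPA7 passed in glk1 glk2 without array 3 (-2.36, adjusted p = 0.0179). The summed intensity of the 20 markers, in units of the array's 75th percentile, was 40.9 to 78.2 in GLK1-SRDX, 31.7 to 98 in glk1 glk2 and 57.9 to 85.2 in wild type. PYK10, the brightest marker at 4.69 to 6.19, weighed most in this sum. Its differences of -0.27 in GLK1-SRDX (limma adjusted p = 0.602) and -0.31 in glk1 glk2 did not pass. In whole seedlings, fewer root cells and less RNA per root cell cannot be told apart. When the array's mean over the root markers was added to the fit, the root-type median was -0.47 in GLK1-SRDX and -0.13 in glk1 glk2. In that fit 17.8% of all loci passed in GLK1-SRDX against wild type in either direction, against 14.4% without the root-marker level. The 6 root-type members that had fallen in GLK1-SRDX still passed, with TIP2;2 at -1.17 (limma adjusted p = 0.00112), TIP2;3 at -1.39 (0.00929) and PIP2;4 at -0.69 (0.014). Of those that had not passed, TIP4;1 differed by -0.36, NIP5;1 by -0.02, NIP1;1 by 0.11 and NIP3;1 by 0.29, so that the last pair turned sign. The dim PIP2;5 (-0.3) and NIP2;1 (0.07) turned sign as well. In glk1 glk2, PIP2;4 (0.31), NIP1;1 (0.45), NIP3;1 (0.35) and NIP5;1 (0.33) turned sign, and 0 passed, beside 4.71% of all loci in either direction. No GLK1-SRDX array reached the root-marker level of any wild-type array, so this fit extrapolates, and the part of root tissue in the differences was not otherwise tested.

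The 4 glk1 glk2 arrays differed among themselves unevenly over the family. The SD over them was 1.67 for PIP2;4 and 1.44 for TIP2;3, against 0.4 and 0.16 in wild type, but 0.15 to 0.33 for 3 other root-type PIPs. It was 0.84 for the seed-type TIP3;1, against 0.24 in wild type. The leaf-type NIP6;1 had an SD of 0.75 in glk1 glk2, but also 0.8 in wild type. Without array 3, 7 aquaporins fell in glk1 glk2: PIP1;1 (-0.34), PIP2;2 (-0.62), PIP2;4 (-1.94), TIP1;1 (-0.73), TIP2;2 (-0.91), TIP2;3 (-1.98) and TIP4;1 (-1.51), with limma adjusted p of 0.0109 to 0.047. In that fit 15.4% of all loci passed in either direction, against 3.25% with all arrays. Leaving out any other single array gave 0. Within the slide of arrays 1 and 2 the root-type median of glk1 glk2 was -0.88, and within the slide of arrays 3 and 4 it was -0.54.

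Array 3 of glk1 glk2 also stood apart for seed transcripts. TIP3;1 (AT1G73190), a channel of protein storage vacuoles in seeds, had -3.55, -3.82, -3.87 and -3.85 in GLK1-SRDX, -3.98, -3.7, -2.39 and -4.3 in glk1 glk2, and -3.69, -3.79, -3.8 and -4.24 in wild type. Its highest value was on that array, which was also the only array with its close relative TIP3;2 well above background (-6.36). The seed markers CRU1, a storage globulin, and OLEO1, an oil body protein, were highest there as well, at -0.18 and -5.03. CRU1 was also detected on wild-type arrays 1 (-2.93) and 4 (-4.47), glk1 glk2 array 1 (-6.15) and GLK1-SRDX array 4 (-6.8), and the albumins SESA1, SESA2 and SESA3 on 0 arrays. The summed intensity of the 5 seed markers was 0.00644 to 0.0184 in GLK1-SRDX, 0.00956 to 0.922 in glk1 glk2 and 0.00866 to 0.144 in wild type.

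**Figure D4:**
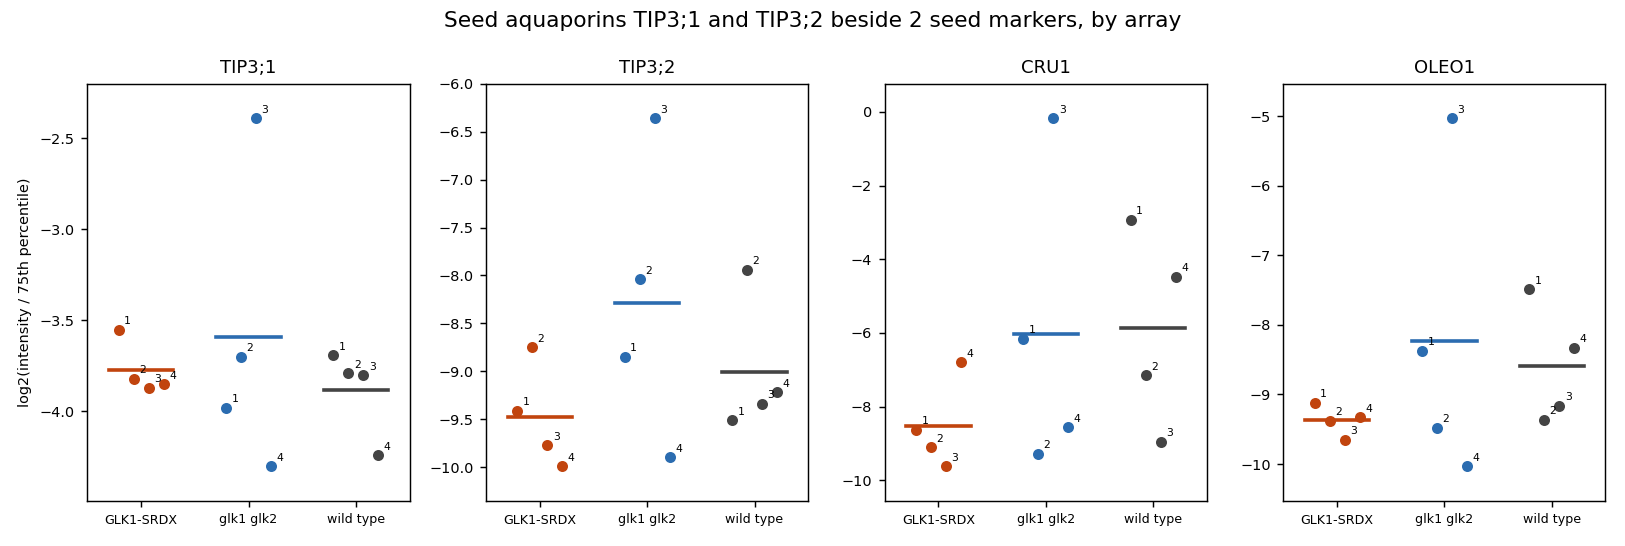
Levels of the 2 seed aquaporins and of the seed markers CRU1 and OLEO1 by array, as log2 of intensity over the array's 75th percentile, with genotype means as bars (n = 4 arrays). Array 3 of glk1 glk2 is the highest of the 12 arrays in all panels (-2.39, -6.36, -0.18 and -5.03).

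The comparison of GLK1-SRDX with glk1 glk2 tests where the lines differ from each other. Here 3 of 32 aquaporins fell (PIP1;1, TIP2;2 and NIP7;1) and NIP1;2 rose, beside 3.58% of all loci that fell and 5.68% that rose. Of the 32 differences 25 were below 0 (50.8% over all loci). Their median was -0.18 (0.11 with the authors' scaling, which moved the median of all loci to 0.28), and that of the root-type members was -0.39. TIP2;3 had a difference of -1.42 ± 0.59 that did not pass (limma adjusted p = 0.163), and passed without glk1 glk2 array 4 (-1.97, adjusted p = 0.0308). Without that array 5 aquaporins fell and NIP1;2 rose, while 9.02% of all loci passed in either direction. Of the 20 root markers 1, CASP5, fell between the lines, 6 had positive differences, and their median was -0.19. HAK5 was at least 24.2-fold higher in GLK1-SRDX than in glk1 glk2 and did not pass (limma adjusted p = 0.0588). With the root-marker level in the fit 7 aquaporins fell, namely the same 3 and PIP2;1, PIP2;2, PIP2;4 and TIP2;3, while 18.7% of all loci passed in either direction, against 9.26% without it.

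Carriers of the solutes that aquaporins also pass were set beside the family. Of 8 boron, ammonium and urea transporters, 3 fell in GLK1-SRDX against wild type and 1 rose, beside 6.3% and 8.1% of all loci. The ammonium transporter AMT1;2 (AT1G64780) had -1.56, -1.5, -1.29 and -0.83 in GLK1-SRDX, -0.16, -0.61, 0 and -0.14 in glk1 glk2, and 0.12, 0, -0.17 and 0.05 in wild type, a 2.45-fold fall against wild type (limma adjusted p = 0.000975) and a 2.09-fold fall against glk1 glk2 (0.00411). AMT2 (AT2G38290, also named AMT2;1), another ammonium transporter, had 1.87, 1.61, 1.63 and 1.43 in GLK1-SRDX, 0.7, 0.85, 1.2 and 0.48 in glk1 glk2, and 0.41, 0.41, 0.69 and -0.07 in wild type. Its rise in GLK1-SRDX was 2.42-fold against wild type (adjusted p = 0.00149) and 1.78-fold against glk1 glk2 (0.0182). The rise against glk1 glk2 gave adjusted p of 0.0563, 0.0608 and 0.0501 without glk1 glk2 array 1, GLK1-SRDX array 1 or GLK1-SRDX array 3. The 2 genes had opposite directions in GLK1-SRDX, and for both every GLK1-SRDX array lay apart from the wild-type arrays.

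AMT1;1 (AT4G13510), a high-affinity ammonium transporter, separated all 3 genotypes. It had 1.78, 1.55, 1.73 and 1.69 in GLK1-SRDX, 2.56, 2.51, 2.28 and 2.45 in glk1 glk2, and 2.11, 1.98, 1.92 and 2.03 in wild type. It was lower in GLK1-SRDX than in wild type (-0.32 ± 0.08 SE, limma adjusted p = 0.0264) and higher in glk1 glk2 than in wild type (0.44 ± 0.08 SE, adjusted p = 0.0188). That rise was lost without wild-type array 2 (adjusted p = 0.0631), glk1 glk2 array 1 (0.0621) or glk1 glk2 array 2 (0.0549). It was also lost with normexp (0.0555), with only these 2 genotypes fitted (0.0924), with the authors' scaling (0.25, adjusted p = 0.488) and with the root-marker level in the fit (0.0547), and it was 0.49 and 0.39 within the 2 slides without passing. The urea transporter DUR3 (AT5G45380) was 2.77-fold lower in GLK1-SRDX (adjusted p = 0.0163, and 0.0527 without GLK1-SRDX array 2). BOR1, a boron exporter, was among the 4 that did not pass (-0.41 ± 0.14, adjusted p = 0.0812).

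**Figure D5:**
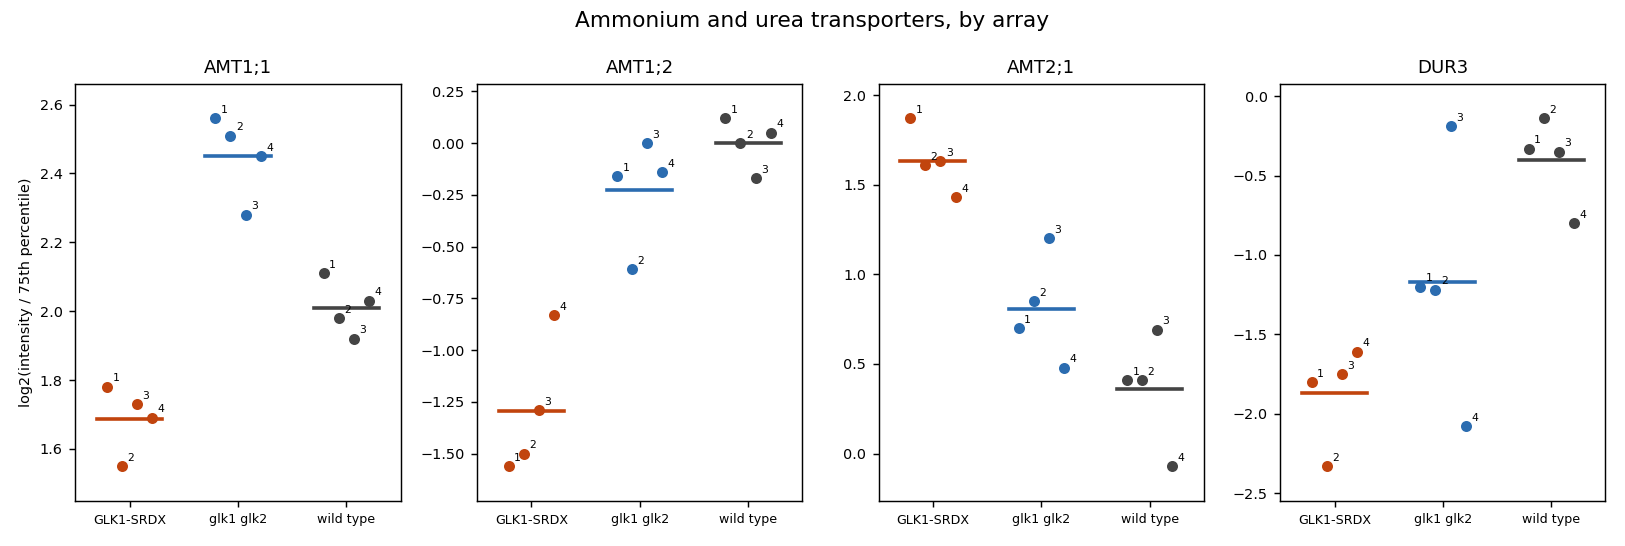
Levels of 3 ammonium transporters and the urea transporter DUR3 by array, as log2 of intensity over the array's 75th percentile, with genotype means as bars (n = 4 arrays). AMT2 lies at 1.43 to 1.87 in GLK1-SRDX, above both other genotypes, and AMT1;2 at -1.56 to -0.83, below both.

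Of 9 genes for aquaporin trafficking and turnover, 1 fell in GLK1-SRDX, beside 6.3% of all loci. This was QSK1, a receptor kinase that acts with SIRK1 on PIPs, 1.25-fold lower (limma adjusted p = 0.0111, and 0.33 with arrays scaled to their medians). The trafficking list had a median of -0.01 in GLK1-SRDX and 0 in glk1 glk2. Of 7 vacuolar and plasma membrane proton pumps 0 passed in limma in any comparison. Against wild type, 1 in GLK1-SRDX and 4 in glk1 glk2 were higher at an unadjusted p under 0.05, beside 16.4% and 11.1% of all loci. The pumps AHA1 with arrays scaled to their medians (0.38 in GLK1-SRDX against wild type, adjusted p = 0.0331), AVP1 without glk1 glk2 array 3 (0.37 in glk1 glk2, 0.0287) and VHA-A3 without that array (-0.35 in GLK1-SRDX against glk1 glk2, 0.0421) did pass. Among guard cell markers 2 of 5 fell in GLK1-SRDX, beside 6.3% of all loci, including the potassium channel KAT1 (3.84-fold lower, adjusted p = 0.00173). The call of MYB60, a guard cell transcription factor (-0.58, 0.0325), was lost in 5 of the 12 fits without 1 array. It was also lost under 4 other settings (-0.6 to -0.39, adjusted p of 0.0643 to 0.201). Among leaf markers 2 of 8 fell in GLK1-SRDX, beside 6.3% of all loci. CA1 was 2.14-fold lower (adjusted p = 0.0168), a call lost under 3 of 23 alternatives. The Rubisco small subunit gene RBCS2B was 1.74-fold lower (adjusted p = 0.0085, and 0.0504 with arrays scaled to their medians). The other small subunit genes RBCS1A (-0.04), RBCS1B (-0.34) and RBCS3B (-0.17) did not pass. In glk1 glk2 0 guard cell or leaf markers passed. At an unadjusted p under 0.05, KAT1 (-0.8) and CA1 (-0.75) were lower and RBCS2B (0.52) higher, and 19.6% of all loci met this rule in either direction. With paired arrays as a replicate block KAT1 fell in glk1 glk2 (-0.8, adjusted p = 0.0449 on 8 arrays). RBCS2B rose in glk1 glk2 with quantile normalization (0.6, 0.0134) or without glk1 glk2 array 3 (0.67, 0.0111).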

How the data were processed

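RNA of whole seedlings (1 µg per array, per the labels' protocols) was measured on 12 arrays. The deposited scanner files hold linear intensity per spot, background-subtracted per the file headers. The submitters' processing notes name Feature Extraction 9.1.3.1 as the software. The authors' series table holds the same intensity divided by 1 constant per genotype (892, 1077 and 974 for GLK1-SRDX, glk1 glk2 and wild type), whose origin the sources used here do not give.

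The processed intensity was divided by the 75th percentile of its array (1562 to 2542 over arrays) and taken as log2. Control and outlier spots were left out (0 spots were saturated). Kept probes were well above background on at least 4 arrays and had no outlier mark on at least 3 arrays per genotype. The brightest probe stood for a locus. The fit across all loci used limma 3.58.1 (lmFit, eBayes) under R 4.3.3 (9 residual degrees of freedom, two-sided, Benjamini-Hochberg over 20640 loci), tested on simulated data. Precision is limited by the number of arrays (median SE of a log2 difference 0.144). Same-numbered glk1 glk2 and wild-type arrays deviated together (r 0.32 to 0.76, each highest with its own number). The main fit did not pair arrays, and only the alternatives with a replicate block took these numbers in. Of the GLK1-SRDX arrays only array 3 was highest with its own number (r 0.26 with wild type and 0.58 with glk1 glk2).

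The members, gene lists and organ classes were chosen with earlier results of these data known. Values by array are given for members that passed in any comparison and for the 6 others with the smallest p. Of other lists up to 3 passing genes were named, and of marker lists fewer. BOR1, AMT1;1 in GLK1-SRDX, HAK5, NRT2.1, MYB60, other markers or pumps named for a lost or gained call, members given only by range, and PIP2;5, PIP2;6, TIP2;1 and NIP5;1 were chosen after their values were seen. So were PYK10, RBCS1A, RBCS1B and RBCS3B. Alternatives covered scaling, background, filters, probes, fitted groups, slide, pairing, a root-marker covariate and each array left out. The files hold median in place of mean spot signals, so the normexp alternative (offset 50) used gMedianSignal.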

Additional observations from a re-analysis of the deposited data

Results flagged for a closer look

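In 6 of 96 sets of 4 arrays, 1 array stood apart from the other 3 of its genotype by Dixon's ratio, a rate near the 1 in 20 that chance gives. In GLK1-SRDX, TIP3;1 was highest on array 1 (-3.55, with the others at -3.87 to -3.82) and NIP3;1 on array 3 (-4.35, others -5.9 to -5.73). In glk1 glk2, NIP7;1 was lowest on array 3 (-4.53, others -3.87 to -3.78). In wild type, PIP2;3 was lowest on array 3 (-0.01, others 0.39 to 0.42), PIP2;4 was lowest on array 4 (0.41, others 1.14 to 1.27), and NIP2;1 was highest on array 4 (-6.19, others -7.39 to -7.24). The causes were not tested.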

How the results depend on the processing

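TIP2;2 and TIP2;3 fell in GLK1-SRDX against wild type under all 23 alternatives (differences of -1.83 to -1.17 and of -3.1 to -1.39). PIP1;1, PIP2;2 and PIP2;3 passed in 22 of 23, NIP1;2 in 21, PIP1;5 and NIP7;1 in 20 and PIP2;4 in 14. The count of aquaporins lower in GLK1-SRDX than in wild type was 8, and became 5 with normexp background, 13 with only these 2 groups fitted and 3 with the authors' table, with 7 to 12 when 1 array was left out. With normexp, 2 groups fitted and the authors' table, 7.78%, 21.5% and 4.36% of all loci passed in either direction, against 14.4% in the main fit. The count of aquaporins higher was 1, and 0 with normexp or the authors' table. Against glk1 glk2 the count higher was 1, and 0 with median scaling, normexp, only 2 groups or the authors' table, and 0 to 1 with 1 array left out. The count lower was 3, and became 1 with normexp, 0 with the authors' table and 7 with the root-marker covariate, with 2 to 5 when 1 array was left out. In glk1 glk2 against wild type 0 rose under all 26 alternatives, and 0 to 7 fell with 1 array left out, 7 only without glk1 glk2 array 3. Apart from the root-marker covariate and the left-out arrays, whose construction is given, the cause was not tested. With array pairs as a replicate block on 8 arrays (chosen after seeing the data) 0 aquaporins passed in glk1 glk2 while 1365 loci did, and the replicate block changed no aquaporin call there but added that of KAT1 (-0.8, adjusted p = 0.0449). With a replicate block on all 12 arrays, 13 aquaporins passed in GLK1-SRDX against wild type and 5 against glk1 glk2, beside 21.9% and 14.9% of all loci. In these comparisons the numbers do not pair the samples. With slide as a random block, 11 and 4 aquaporins passed in them, beside 17.3% and 11.4% of all loci. Over all loci, the calls in GLK1-SRDX against wild type were 2972, and 4712 with median scaling, 1605 with normexp, 4439 with 2 groups fitted and 899 with the authors' table. They were 3681 with the covariate, 4521 with the replicate block and 1523 to 4443 with 1 array left out. Against glk1 glk2 they were 1911, and 1205 with median scaling, 598 with normexp, 1271 with 2 groups fitted, 3866 with the covariate, 3085 with the replicate block and 1005 to 2684 with 1 array left out. In glk1 glk2 against wild type they were 671, and 1944 with median scaling, 254 with normexp, 443 with no filter, 111 with 2 groups fitted, 136 with the authors' table, 1300 with the replicate block on 12 arrays, 20 and 0 within slides 1 and 2 and 229 to 3174 with 1 array left out.

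Over all tested aquaporins, signs turned only for differences that had not passed. The turned signs were 10, 4, 6, 5, 5, 4 and 8 in glk1 glk2 against wild type with median scaling, quantile normalization, normexp, the authors' table, slide 1, slide 2 and the covariate. They were 9, 4, 7, 7 and 8 in GLK1-SRDX against wild type with the first 4 and the covariate, and 4 with normexp and 13 with the authors' table against glk1 glk2. The values that follow cover only members that passed in any comparison, the 6 others with the smallest p, and CRU1. Other members turned as well. In glk1 glk2 these included NIP1;1 (0.45), NIP3;1 (0.35) and NIP5;1 (0.33) with the covariate. With median scaling they included PIP2;6 (0.18), TIP2;1 (0.18) and NIP5;1 (0.1). In GLK1-SRDX against wild type they included NIP1;1 (0.11) and NIP3;1 (0.29) with the covariate. In glk1 glk2 against wild type, median scaling gave SIP1;2 0.15, PIP2;1 0.11, PIP1;3 0.11 and CRU1 0.03. Quantile normalization gave SIP1;2 0.07, normexp gave NIP7;1 -0.35 and PIP1;3 0, and the authors' table gave NIP1;2 -0.06 and NIP7;1 -0.14. Within slide 1 PIP1;3 was 0.03, and within slide 2 NIP7;1 was -0.14 and CRU1 2.34. The root-marker covariate gave PIP2;4 0.31, NIP7;1 -0.22 and CRU1 2.77. With 1 array left out, NIP7;1 ran from -0.03 to 0.22, SIP1;2 from -0.13 to 0.01, PIP2;1 from -0.17 to 0.05, PIP1;3 from -0.18 to 0.01 and CRU1 from -2.12 to 0.91. In GLK1-SRDX against wild type, NIP2;1 was 0.17 with median scaling, 0.07 with quantile normalization, 0.08 in the authors' table, 0.07 with the covariate and -0.27 to 0.27 with 1 array left out, and CRU1 was 0.43 with the covariate. Against glk1 glk2, the authors' table gave PIP1;5 0.11, PIP2;3 0.02 and PIP1;3 0.03, and with 1 array left out TIP1;1 ran from -0.09 to 0.21 and TIP4;1 from -0.59 to 0.13.

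The 3 untested aquaporins had no usable signal over background, and single probes stood for each member, so a probe that reads a related gene would not be seen.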
